A study of Mus musculus with 80 samples.

Results

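The methionine adenosyltransferase (MAT) family of the mouse consists of the catalytic genes Mat1a and Mat2a and the regulatory gene Mat2b. Its members were found by their symbols in a table of gene counts from liver, where they are 3 of 78275 listed genes, and by their gene identifiers in a table of exon-bin counts, where they hold 63 of 470140 bins. An exon bin is a stretch of a gene's exons cut wherever the ends of its transcripts differ. The livers came from male and female C57BL/6J mice of 8 to 12 weeks, housed in groups, first under light:dark and then kept in darkness for the sampling. The left lobe was taken every 4 h from circadian time (CT) 8 to CT44, from mice fed ad libitum (control) or from mice whose food was removed at CT10 (fasted), so that the fasted livers of CT8 precede food removal. Each combination of treatment and time holds 2 males and 2 females, 1 library per mouse, for 80 libraries in all. Poly(A) RNA was sequenced as paired reads from a stranded library kit.

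MAT enzymes join methionine and ATP into S-adenosylmethionine (SAM), the methyl donor of most cellular methylation and a precursor of polyamines. MAT1A is the catalytic subunit of differentiated hepatocytes, MAT2A is the catalytic subunit of most other cells and of dividing or injured liver, and MAT2B binds MAT2A and modulates its activity. The Mat2a transcript itself responds to SAM: the methyltransferase METTL16 binds hairpins after its stop codon, and low SAM is known to favour splicing of its last intron and so a more stable mRNA. The question here is how the mRNAs of the 3 genes, and of their alternative 5′ and 3′ parts, changed over the hours without food.

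The labels of the libraries were in conflict. Titles and characteristics disagree on sex in 40 libraries and on treatment in 40, and the titles, which match the column names, were used. All 80 libraries fitted the sex of their title: Xist was at least 24875 counts in females and at most 91 in males, and Ddx3y was at least 1919 in males and at most 14 in females. Fgf21, a hepatokine of fasting, rose by 3.95 and Srebf1, a lipogenic transcription factor that falls without food, fell by 3.13 on the log2 scale over CT12 to CT44. Total gene counts were 25534901 to 59927771 per library. In the exon table, 3 columns of the fasted CT40 group each matched another library of that group better than their own, so sexes were pooled there for bin values. The control CT8 female 2 library held 31.3% of its counts in the ribosomal RNA gene Rn18s-rs5, against at most 4.88% in the others.

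The genes lie, in the GRCm38 build of the GENCODE M21 annotation, at chr14:41105035-41124412 on the plus strand for Mat1a (ENSMUSG00000037798.8, 14 bins), at chr6:72432799-72439558 on the minus strand for Mat2a (ENSMUSG00000053907.11, 29 bins) and at chr11:40679314-40695203 on the minus strand for Mat2b (ENSMUSG00000042032.14, 20 bins). The deposited tables give bin numbers without coordinates, and the labels name the GRCm39 build. The meaning of a bin was therefore inferred from an equal number and order of bins in GENCODE M21, which held for the 3 members and for 91.1% of the genes found in both. Mat1a and Mat2b overlap no other annotated gene, whereas the 5′ end of Mat2a lies opposite the antisense gene Particl. How strand was used in counting is not given in the sources used here, so reads of these genes cannot be told apart there.

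The METTL16 sites of Mat2a are shown first, because the last intron and 3′ end of this gene are read against them later. A search of the 1494 bases after the stop codon of Mat2a-201, on the transcript strand only, for TACAGAGAA and TACAGAAAA found 6 matches, 40 to 1337 bases after the stop codon. They are printed 5′ to 3′ as 30 bases of the transcript with the motif in capitals, from the GENCODE M21 transcript sequences (GRCm38, minus strand). All lie in the last exon, site 1 in bin 4, site 2 in bin 3 and the other sites in bin 2, at chr6:72434234-72434263, chr6:72433450-72433479, chr6:72433271-72433300, chr6:72433156-72433185, chr6:72433045-72433074 and chr6:72432937-72432966 in this order.
Mat2a site 1: tggcgtaggtTACAGAGAAgccttcaagct
Mat2a site 2: ccttgtgataTACAGAGAAgtcacagggca
Mat2a site 3: ctggtgtagcTACAGAGAAaccagcttcct
Mat2a site 4: atggcgtaagTACAGAGAAgccatcacctc
Mat2a site 5: caaggtgtccTACAGAAAAaccttgggtta
Mat2a site 6: gctggtgtggTACAGAGAAgccagcttgtt
Of 7483 genes with as many bases after their stop codon, Mat2a included, 310 (4.14%) held at least 1 of the motifs in such a window. The 1 gene (0.0134%) with at least 6 was Mat2a itself, so that share is no independent measure of rarity. A match of letters is a description and no proof of binding.

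The 5′ leaders of Mat1a are described next, because its bin results lie there. All 3 annotated transcripts start their protein at the same codon, in bin 5, shown here with its start codon in capitals at chr14:41105591-41105620 (GRCm38, plus strand).
Mat1a first codons: ATGaatggacctgtggatggcttgtgtgac
Upstream of it, Mat1a-201 has 210 bases of leader with 1 further ATG, whereas Mat1a-203 starts farther upstream and has 470 bases with 3 further ATGs, each followed by a stop codon in its own frame before the main start. The short model Mat1a-202 has 189 bases and none. Bins 1 to 4 carry these leaders and no codons of the protein. Bin 1 (116 bp, chr14:41105035-41105150) belongs to Mat1a-203 alone, bin 2 (110 bp, chr14:41105151-41105260) to Mat1a-202 and Mat1a-203, bin 3 (34 bp, chr14:41105347-41105380) to Mat1a-203 alone, and bin 4 (131 bp, chr14:41105381-41105511) to Mat1a-201 and Mat1a-203. Bins 1 to 3 thus lie upstream of the leader of Mat1a-201, and bin 14 (1910 bp) is the last exon.

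Mat1a was by far the most abundant member, and its lead widened in the fast. Per kilobase of exon, the level over CT12 to CT44 was 991 ± 268 CPM per kb (CPM, the usual library-size-scaled count) in controls and 2966 ± 882 in fasted livers (SD, n = 36 each). Mat2a stood at 16.3 ± 3.56 and 20.5 ± 4.52, and Mat2b at 5.54 ± 0.741 and 6.82 ± 0.908 on the same scale. All 3 members passed the edgeR quasi-likelihood test of the mean fasting effect over CT12 to CT44 (Benjamini-Hochberg adjusted p under 0.05 over 21187 genes), as did 62.5% of all genes tested. Mat1a rose by 1.56 (SE 0.06, adjusted p = 6.94e-27), Mat2a by 0.34 (SE 0.04, adjusted p = 1.29e-11) and Mat2b by 0.30 (SE 0.03, adjusted p = 6.50e-14) on the log2 scale. In bulk liver, fewer cells of a type and less RNA per cell cannot be told apart.

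**Figure D1:**
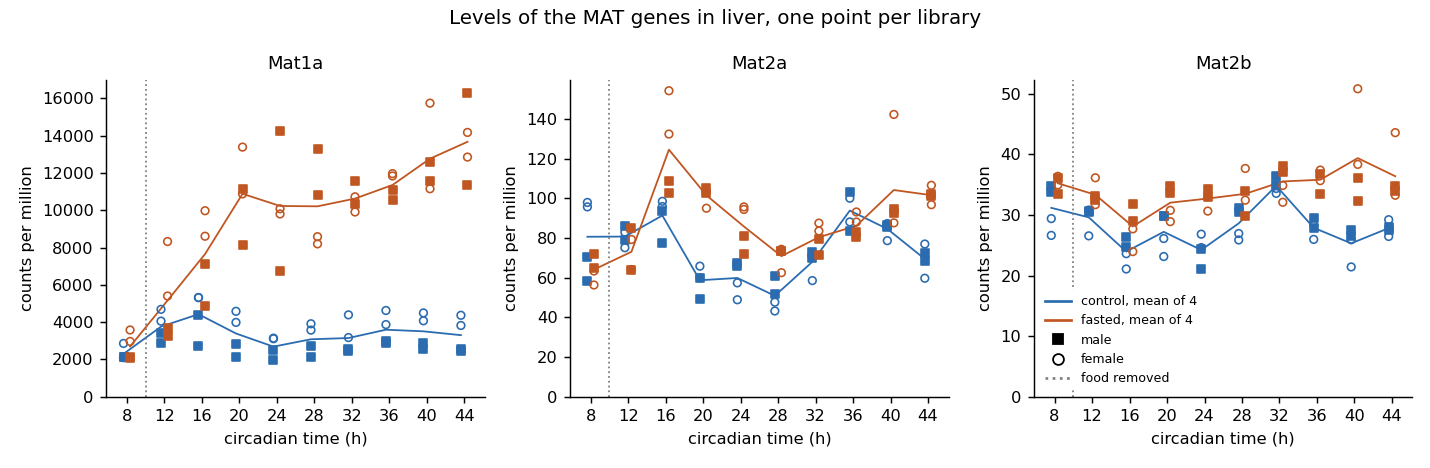
Level of Mat1a, Mat2a and Mat2b in CPM (vertical axes, 1 panel per gene) in every library against circadian time in hours, with control in blue and fasted in orange, males as filled squares, females as open circles, lines through the means of 4 libraries and a dotted line at food removal (CT10). The Mat1a groups part from CT20 on, with fasted livers between 6768 and 16286 CPM and controls between 1971 and 4628, whereas the Mat2a and Mat2b groups overlap at some times, such as CT32, and part at others, such as CT24 and CT44.

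The onset in Mat1a, the hepatocyte catalytic gene, was gradual over the first samples. At CT8, before food removal, control livers read 2861, 2098, 2115 and 2121 CPM and the livers assigned to fasting 2968, 3583, 2143 and 2089 CPM (females, then males). At CT12, 2 h without food, controls read 4057, 4689, 3428 and 2874 CPM and fasted livers 5403, 8326, 3250 and 3681 CPM. The groups overlapped at both times, the fasted female 2 liver standing highest at CT12. No member passed the test at either time, where 1.33% (CT8) and 1.6% (CT12) of all genes did, and limma voom and DESeq2 also called 0 of 3. Unadjusted p was under 0.05 for Mat2a and Mat2b at CT8 and for Mat1a and Mat2b at CT12. The Mat1a estimates were 0.20 (SE 0.17, adjusted p = 0.691) and 0.39 (SE 0.17, adjusted p = 0.271) by edgeR.

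By CT16, 6 h without food, Mat1a controls read 5317, 5325, 4370 and 2702 CPM and fasted livers 9977, 8610, 7138 and 4890 CPM. Mat1a had risen by 0.79 (SE 0.17, edgeR adjusted p = 4.39e-04), a time at which 23.4% of genes passed, although the lowest fasted male still lay below the 2 control females. At CT20, 10 h without food, controls read 4584, 3989, 2857 and 2146 CPM and fasted livers 13389, 10879, 8145 and 11132 CPM. The groups no longer overlapped, and Mat1a was higher by 1.72 (SE 0.17, edgeR adjusted p = 6.22e-11) where 36.6% of genes passed. From CT24 to CT44 the difference stayed between 1.68 and 2.09, every adjusted p passing, with 24.1% of genes called at CT24, 21% at CT28, 17.7% at CT32, 26.8% at CT36, 39.9% at CT40 and 39.4% at CT44. At CT44, 34 h without food, fasted livers read 14176, 12855, 11377 and 16286 CPM against 3824, 4370, 2476 and 2550 CPM, with no overlap.

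The course of the rise was tested as the difference of each early effect from the late mean. The Mat1a effect at CT12 was lower than the mean effect of CT36, CT40 and CT44 by 1.50 (estimate -1.50, SE 0.20, edgeR adjusted p = 2.86e-07), in a contrast that 21.3% of genes passed. At CT16 it was still lower (-1.10, edgeR adjusted p = 8.97e-05, 15.9% of genes called). The difference from late at CT20 was -0.17 (edgeR adjusted p = 0.683), where 8.68% of genes passed. In order of mean level, the 7 fasted groups of CT20 to CT44 came highest, from 10214 ± 2338 CPM at CT28 to 13674 ± 2084 at CT44 (SD, n = 4). Neighbours in this order were closer than the larger SD of the pair. Fasted CT16 (7654 ± 2177 CPM) and fasted CT12 (5165 ± 2304 CPM) followed, then the controls from CT16 (4429 ± 1235 CPM) down to CT8 (2299 ± 375 CPM), with fasted CT8 (2696 ± 715 CPM) among the lowest controls.

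The sexes differed in their Mat1a levels and response. Over CT12 to CT44 control females held 4142 ± 656 CPM and control males 2730 ± 536 CPM, whereas fasted females and males held 10646 ± 2469 and 9927 ± 3591 CPM (SD, n = 18 each). The fasting effect was smaller in females by 0.43 (estimate -0.43, SE 0.11, edgeR adjusted p = 0.00792), with 12.4% of genes called for a sex difference. That call was lost without male replicate 1 (adjusted p = 0.0528), male replicate 2 (adjusted p = 0.114) or female replicate 2 (adjusted p = 0.0623) in edgeR. For Mat2a the sex difference was 0.19 (adjusted p = 0.066) and for Mat2b 0.12 (adjusted p = 0.140) by edgeR.

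Mat2a, the catalytic gene of other tissues, had its largest effect at CT20 and smaller ones later. At CT16 controls read 98.6, 95.9, 77.3 and 93.8 CPM and fasted livers 132, 154, 103 and 109 CPM. All fasted values were above all control values, and Mat2a had risen by 0.43 (edgeR adjusted p = 0.00169), a call lost without male replicate 1. At CT20 controls read 65.9, 60.0, 49.5 and 59.7 CPM and fasted livers 95.1, 103, 105 and 103 CPM, again with no overlap. The effect there was 0.79 (SE 0.11, edgeR adjusted p = 5.63e-08). It was 0.52 at CT24 and 0.48 at CT28 (edgeR adjusted p = 1.85e-04 and 5.60e-04), the latter lost without male replicate 1.

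Later in the fast Mat2a moved in and out of the control range. The edgeR estimate was 0.24 (adjusted p = 0.108) at CT32 and -0.12 (adjusted p = 0.410) at CT36, where controls read 88.2, 100.1, 83.8 and 103 CPM and fasted livers 88.1, 93.2, 80.6 and 82.9 CPM. At CT40 the estimate of 0.29 (edgeR adjusted p = 0.0230) rested on the fasted female 2 liver at 142 CPM beside 87.7, 94.5 and 92.5 CPM, and was 0.07 (adjusted p = 0.669) without female replicate 2. At CT44 Mat2a rose by 0.55 (edgeR adjusted p = 4.14e-05), with fasted livers at 96.9 to 107 CPM and controls at 59.8 to 77.0 CPM. The CT20 effect exceeded the late mean by 0.55 (SE 0.12, edgeR adjusted p = 0.0029), lost without male replicate 1 (adjusted p = 0.167) or 2 (adjusted p = 0.0905). The CT12 effect lay below the late mean (-0.38, edgeR adjusted p = 0.0196), a call lost in 3 of the 4 fits that left out a replicate, and the CT16 effect differed from it by 0.19 (adjusted p = 0.296).

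Mat2b, the regulatory subunit, rose by small amounts that were unevenly spread over time. It passed at 7 of the 9 times after food removal, Mat1a at 8 and Mat2a at 6. At CT16 and CT20 the edgeR estimates were 0.23 (adjusted p = 0.0281) and 0.24 (adjusted p = 0.0140), with fasted ranges of 23.96 to 31.8 and 28.9 to 34.8 CPM overlapping control ranges of 21.1 to 26.4 and 23.1 to 29.8 CPM. At CT24 fasted livers read 30.6, 33.0, 32.9 and 34.3 CPM and controls 24.6, 26.8, 21.0 and 24.4 CPM, with no overlap and a rise of 0.44 (edgeR adjusted p = 3.19e-05). Estimates were then 0.23 (adjusted p = 0.0291) at CT28, 0.03 (adjusted p = 0.863) at CT32 and 0.36 (adjusted p = 4.52e-04) at CT36 in edgeR. The calls at CT16, CT20, CT28 and CT36 were each lost in at least 1 fit without a replicate. The largest rise was 0.63 at CT40 (edgeR adjusted p = 1.25e-08), from 21.4, 25.9, 26.4 and 27.5 CPM in controls to 38.3, 50.8, 32.3 and 36.1 CPM in fasted livers, and CT44 gave 0.38 (adjusted p = 9.61e-05). Against late, the CT12 effect was lower (-0.29, edgeR adjusted p = 0.0189; lost without either male replicate), and the CT16 and CT20 differences were -0.23 (adjusted p = 0.0787) and -0.22 (adjusted p = 0.124).

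A daily rhythm was fitted as a 24 h cosine. In controls all 3 members passed (45.4% of genes did): the peak-to-trough range was 0.54 for Mat1a with a peak at CT15.4 (edgeR adjusted p = 3.75e-04), 0.77 for Mat2a at CT13.4 (adjusted p = 4.22e-07) and 0.32 for Mat2b at CT7.38 (adjusted p = 2.18e-04) on the log2 scale. In fasted livers, where 50.8% of genes passed beside a linear trend, Mat2a kept a range of 0.63 with a peak at CT17.8 (edgeR adjusted p = 1.82e-05). Mat1a gave 0.41 (adjusted p = 0.0811) and Mat2b 0.10 (adjusted p = 0.506) by edgeR in the fast. The difference between treatments, called in 24% of genes, passed for Mat1a (0.83, edgeR adjusted p = 0.0056, or 0.137 without male replicate 1) and Mat2a (0.71, adjusted p = 2.54e-04). For Mat2b it was 0.25 (edgeR adjusted p = 0.201). These values are the peak-to-trough range of the difference between the fitted curves, not the difference of their ranges. The fit took out only a linear trend, whereas the Mat1a effect rose over the first samples and then held. A change of the Mat1a rhythm and this onset therefore cannot be told apart here.

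The balance of the catalytic genes lay towards Mat1a in the fast, without overlap of the groups from CT20 on. The Mat1a to Mat2a count ratio within a library does not depend on how libraries are scaled, though it is not corrected for gene length. At CT8, before food removal, ratios were 21.9 to 36.3 in controls and 29.1 to 56.5 in livers assigned to fasting. Mean log2 ratios there were 4.85 and 5.36, beside 5.52 and 6.05 at CT12 and 5.55 and 5.91 at CT16. A difference close to those of CT12 and CT16 thus preceded food removal. At CT16, when both genes had risen, control ratios were 53.9, 55.5, 56.5 and 28.8 and fasted ratios 75.3, 55.8, 69.4 and 44.9, so that the groups overlapped. At CT20 control ratios were 69.6, 66.5, 57.8 and 35.9 and fasted ratios 141, 105, 77.5 and 108, and from CT20 to CT44 every fasted ratio lay above every control ratio of its time. Over CT12 to CT44 the log2 ratio was higher in fasted livers by 1.22 and higher in 18 of 18 combinations of time and sex (two-sided permutation within time and sex, p = 1e-05, the smallest that 100000 resamples can give). Mean ratios ran from 38.7 at CT36 to 63.2 at CT28 in controls and reached 144 at CT28 in fasted livers.

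The level that moves most like each member was sought among 11576 genes, by Pearson's r over the 20 means of treatment and time. For Mat1a these were Tmem120a (0.988), Dgat1 (0.980) and Dlst (0.978), for Mat2a Larp4 (0.939), Nepro (0.930) and Cd163 (0.922), and for Mat2b Nek8 (0.950), Npc1 (0.934) and Inpp5k (0.932). Among the members, r was 0.61 for Mat1a with Mat2a, 0.59 for Mat1a with Mat2b and 0.19 for Mat2a with Mat2b. The 20 points share the fasting response and the time of day, and these values are descriptions.

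The most upstream leader of Mat1a rose far less than the gene. Relative to the gene as a whole, bins 1, 2 and 3 fell over CT12 to CT44 by 1.30 (edgeR diffSpliceDGE adjusted p = 1.78e-89), by 0.79 (adjusted p = 2.54e-17) and by 0.61 (adjusted p = 7.74e-11) on the log2 scale. No other bin of Mat1a passed. Over all members 4 of the tested bins passed (3 of 14 in Mat1a, 0 of 28 in Mat2a and 1 of 19 in Mat2b), and 2.08% of 233672 tested bins did. Without CT40 of both treatments the values were -1.29, -0.79 and -0.62. The test takes its spread from all bins of a gene, and a read that spans several bins is counted in each of them.

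As a share of all Mat1a bin counts, bin 1 overlapped between the groups before food removal and 2 h after it. At CT8 it held 0.708, 0.736, 0.754 and 0.747% in controls and 0.618, 0.474, 0.932 and 0.914% in the livers assigned to fasting. At CT12 it held 0.305, 0.343, 0.638 and 0.649% in controls and 0.356, 0.208, 0.743 and 0.561% in fasted livers. The relative changes were -0.06 and -0.14 (diffSpliceDGE adjusted p = 1 at CT12), at times when 0.012% and 0.0291% of bins passed. None of the Mat1a bins reached an unadjusted p under 0.05 at CT12, and in each treatment the female shares there lay below the male shares.

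The bin 1 groups first separated at 10 h without food, after a lower estimate at 6 h that did not pass. At CT16 it held 0.337, 0.262, 0.375 and 0.625% in controls and 0.194, 0.225, 0.273 and 0.467% in fasted livers. The groups overlapped, the fasted male 2 share lying above 3 of the 4 control shares. The relative change of -0.47 had an unadjusted p of 0.012 and a diffSpliceDGE adjusted p of 1, and 0.108% of bins passed. At CT20 it held 0.392, 0.365, 0.588 and 0.649% in controls against 0.110, 0.167, 0.250 and 0.189% in fasted livers. The groups no longer overlapped, and the relative change was -1.50 (diffSpliceDGE adjusted p = 2.24e-11, 0.168% of bins called). At this time the Mat1a gene effect also did not differ from its late mean by the test (-0.17, SE 0.19, edgeR adjusted p = 0.683). A test that does not pass cannot show that the effects were equal.

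**Figure D2:**
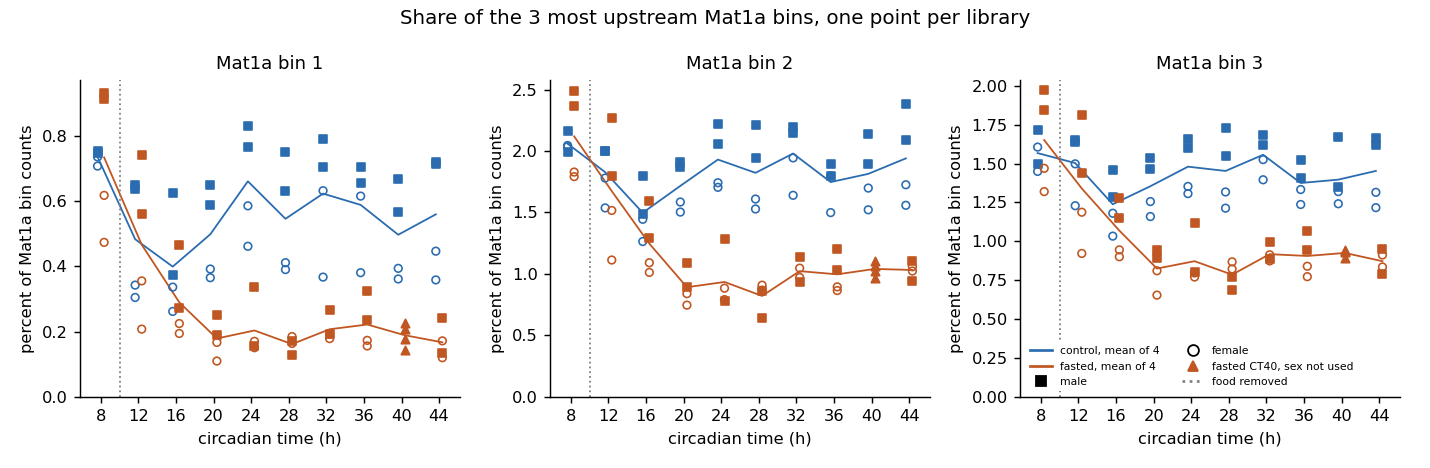
Share of Mat1a bin counts, in percent, held by bin 1, bin 2 and bin 3 (1 panel each) in every library against circadian time in hours, with control in blue and fasted in orange, males as filled squares, females as open circles, lines through the means of 4 libraries and food removal at the dotted line. Triangles stand for fasted CT40, where sex was not used. From CT20 on every fasted point lies below every control point of its time in all 3 panels, for bin 1 by CT20 means of 0.179 against 0.499%.

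From CT24 to CT44 the relative change of bin 1 held between -1.37 and -1.80, with every diffSpliceDGE adjusted p at or below 3.10e-09. The shares of all bins called at these times were 0.135% (CT24), 0.145% (CT28), 0.0993% (CT32), 0.193% (CT36), 0.392% (CT40) and 0.237% (CT44). At CT44 bin 1 held 0.447, 0.359, 0.720 and 0.714% in controls and 0.120, 0.172, 0.241 and 0.136% in fasted livers. Against the late mean, the change at CT12 was smaller by 1.37 (diffSpliceDGE adjusted p = 3.45e-06, 0.0847% of bins called) and at CT16 by 1.04 (adjusted p = 0.0035, 0.113% called). The CT16 call was lost without male replicate 1 (adjusted p = 0.0832), male replicate 2 (adjusted p = 0.813) or female replicate 2 (adjusted p = 0.293). At CT20 the difference from late was 0.01 (diffSpliceDGE adjusted p = 1, with 0.0736% of bins called).

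Bins 2 and 3 had smaller changes, and their differences from the late mean at CT12, CT16 and CT20 did not pass (diffSpliceDGE adjusted p = 1 each). Bin 2 held mean shares of 1.83% in controls and 1.67% in fasted livers at CT12, 1.50 and 1.25% at CT16, 1.72 and 0.892% at CT20, and 1.94 and 1.03% at CT44. It passed at CT24 (-1.11, diffSpliceDGE adjusted p = 0.0191) and CT28 (-1.15, adjusted p = 0.00967), both lost in every fit that left out a replicate. Bin 3 held 1.50 and 1.34% at CT12, 1.24 and 1.07% at CT16, 1.35 and 0.825% at CT20, and 1.45 and 0.872% at CT44, and did not pass at a single time. For bins 1, 2 and 3 alike, every fasted share lay below every control share at 7 of the 9 times, CT20 to CT44, which was so at 7 or more times for 0.0184% of all bins tested. Bin 4 lay wholly below at 5 times and bin 14 wholly above at 5 times, as 0.0989% and 0.102% of bins did at 5 or more.

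On its own level, bin 1 rose little while the coding bins rose with the gene. Over CT12 to CT44 the lowest, median and highest bin 1 levels were 10.4, 13.9 and 19.1 CPM in controls and 11.1, 15.4 and 25.3 CPM in fasted livers, whereas bin 14, the last exon, went from 608, 999 and 1605 CPM to 955, 3166 and 5033 CPM. The own-level change over these times was 0.25 for bin 1 (SE 0.04, edgeR adjusted p = 4.48e-07), 0.75 for bin 2, 0.93 for bin 3, 1.41 for bin 4 and 1.55 to 1.59 for bins 5 to 14, in a test that 50% of all bins passed. At CT20, when bin 14 stood at 3108 CPM in fasted livers against 1017 CPM, bin 1 stood at 13.6 CPM. At single times bin 1 passed only at CT40 (0.49, edgeR adjusted p = 0.00122) and CT44 (0.33, adjusted p = 0.0346). Of all 233672 bins, 57403 passed this test at CT40 and 55223 at CT44. The counts behind these values were 718 to 1830 per control library and 716 to 1775 per fasted library.

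**Figure D3:**
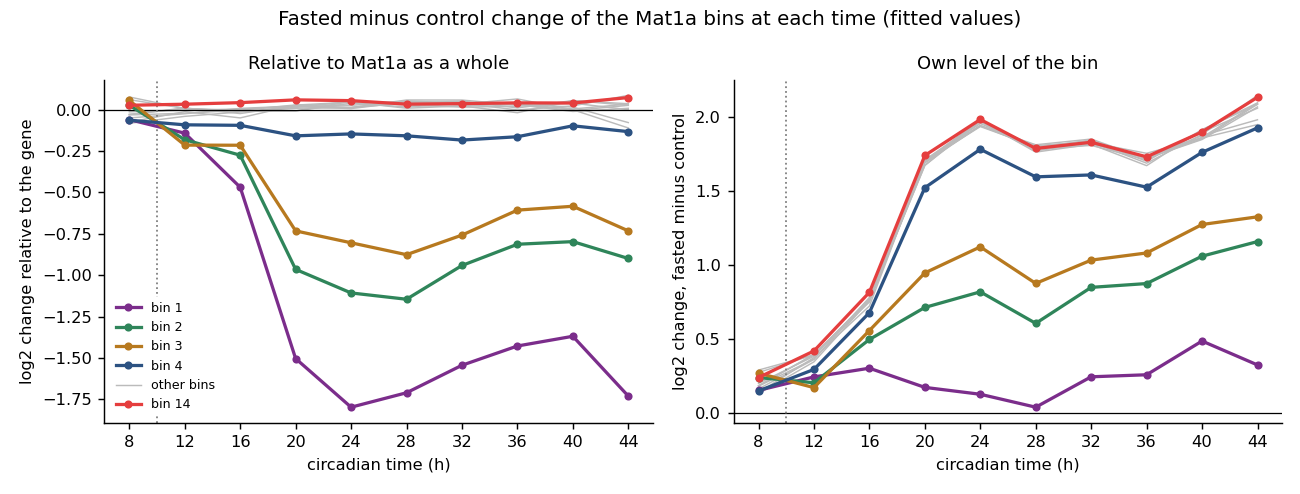
Log2 change, fasted minus control, of each of the 14 Mat1a bins at each circadian time in hours. The left panel is relative to the gene as a whole, and the right panel is on the bin's own level. Bins 1, 2, 3, 4 and 14 are coloured and the others grey. On the left bin 1 drops from -0.47 at CT16 to -1.50 at CT20 with bins 2 and 3 above it, and on the right bin 1 lies lowest from CT16 on, at 0.49 at CT40, while the coding bins rise together.

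In fed mice the bin 1 share also varied with sex and phase, as a description for sex. In controls over CT12 to CT44, bin 1 held 0.412 ± 0.103% of Mat1a bin counts in females and 0.668 ± 0.101% in males (SD, n = 18 each). The bin's own level was 13.6 ± 2.05 CPM in females and 14.4 ± 1.41 CPM in males, whereas bin 14 stood at 1284 ± 183 and 826 ± 158 CPM. These sex values were noticed in the data and were not tested. The effect of fasting on bin 1 differed between the sexes by 0.18 (diffSpliceDGE adjusted p = 1), a contrast that 0.0214% of bins passed. In controls the relative level of bin 1 was lower in the active phase (CT16, CT20, CT40 and CT44) than in the rest phase (CT8, CT28 and CT32) by 0.40 (estimate -0.40, diffSpliceDGE adjusted p = 0.0189, 0.468% of bins called), a call lost in each of the 4 fits that left out a replicate.

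The bins upstream of Mat1a-201 differed from each other in density. Per base and relative to bin 5, the first coding bin, control counts were 0.104 in bin 1, 0.368 in bin 2, 0.938 in bin 3, 0.603 in bin 4 and 0.441 in bin 14, and fasted counts 0.0441, 0.216, 0.615, 0.542 and 0.448. Bins 1 and 3, which the annotation gives to Mat1a-203 alone, thus differed by level as well as by change, and a read that spans short bins is counted in each. Bin 4, which Mat1a-201 and Mat1a-203 share, had a relative change of -0.14 (diffSpliceDGE adjusted p = 1).

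The last intron of Mat2a, whose retention METTL16 is known to influence through sites like those printed above, passed no test relative to the gene. Bins 6 to 9 make up the intron retained in Mat2a-202 (bins 7 and 8 also belong to Mat2a-206 and bin 8 to Mat2a-209). Together they held 5.76 ± 1.15% of Mat2a bin counts in controls (3.66 to 9.14%) and 5.40 ± 0.91% in fasted livers (3.65 to 6.94%) over CT12 to CT44 (SD, n = 36 each), from mean counts of 325 and 338. No Mat2a bin passed the diffSpliceDGE test of the mean effect or at any time; at an unadjusted p under 0.05 there were 2 in the mean effect, and limma called none. On their own levels the 4 bins rose by 0.20 to 0.25 with the gene (edgeR adjusted p under 0.05 each), in a test that 50% of all bins passed. Against the coding bin 14, bins 6 to 9 held 0.272, 0.296, 0.438 and 0.243 counts per base in controls, the ratio to bin 14 being 1 for equal density.

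The mean intron share was higher in fasted livers than in controls at CT16, CT20, CT40 and CT44. It was lower at CT12, CT24, CT28, CT32 and CT36. At CT16 controls held 5.02, 5.00, 5.77 and 4.69% and fasted livers 5.67, 6.19, 5.88 and 5.76%, with overlap for the sum. Bin 7 alone lay wholly above the controls there, as 1.78% of all single bins did. At CT28 controls held 5.43, 9.14, 5.35 and 4.65% and fasted livers 5.24, 3.65, 5.53 and 4.45%, with overlap. At CT32 controls held 5.53, 6.54, 5.58 and 5.81% and fasted livers 3.87, 4.54, 4.46 and 4.82%, without overlap for the sum. Each of the 4 bins taken singly overlapped at this time, where 1.90% of all single bins lay wholly lower in fasted livers. At CT36 controls held 6.56, 6.83, 6.22 and 8.81% and fasted livers 3.74, 5.54, 6.75 and 5.17%, with overlap. The relative estimates at CT36 were -0.69 for bin 8 and -0.70 for bin 9 (diffSpliceDGE adjusted p = 0.446 and 0.229). Their own levels fell by 0.81 and by 0.82 there (edgeR adjusted p = 0.0187 and 0.00107), in a test that 29967 of 233672 bins passed. The gene level did not pass at that time. The highest share, 10.6%, was in the control CT8 female 2 library, the one rich in ribosomal RNA, and its part in that value was not tested.

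**Figure D4:**
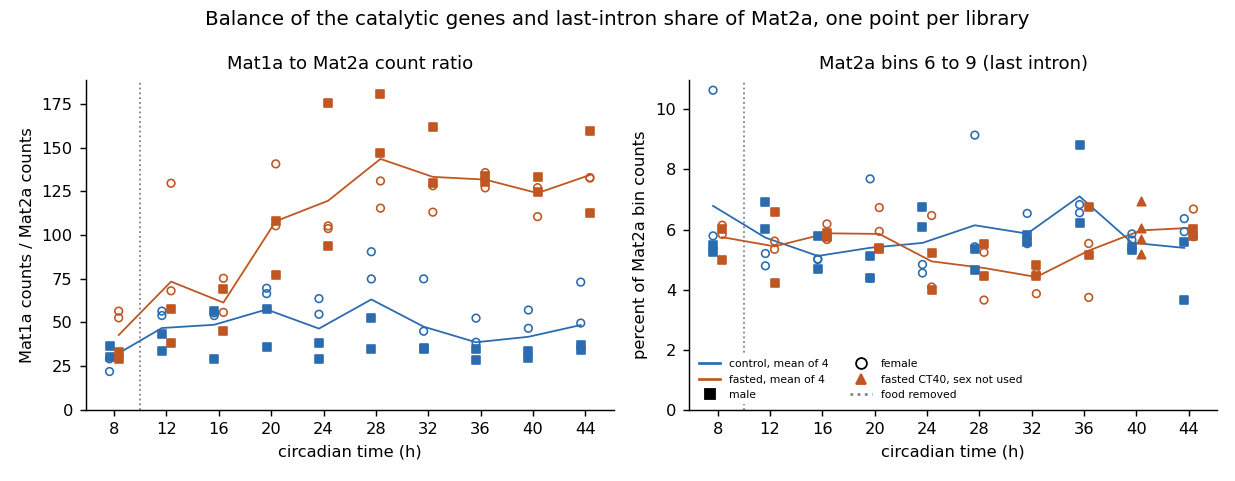
Left, the Mat1a to Mat2a count ratio in every library, and right, the percent of Mat2a bin counts in bins 6 to 9 (the last intron), both against circadian time in hours, with control in blue and fasted in orange, males as filled squares, females as open circles, fasted CT40 as triangles on the right (sex not used) and lines through the means of 4 libraries. The fasted ratios leave the control range at CT20 (77.5 to 141 against 35.9 to 69.6), while the intron shares of both groups stay intermixed over most of the course.

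Mat2b has alternative first exons, in bins 16 to 18 (Mat2b-201) and bins 19 and 20 (Mat2b-202). Over CT12 to CT44 bins 16 to 18 held 5.39 ± 1.12% of Mat2b bin counts in controls and 5.87 ± 1.00% in fasted livers, and bins 19 and 20 held 1.68 ± 0.51 and 1.40 ± 0.55% (SD, n = 36 each). Bin 19 passed at CT16 only, lower by 1.45 relative to the gene (estimate -1.45, diffSpliceDGE adjusted p = 0.00691, limma adjusted p = 0.0174). There bins 19 and 20 held 2.34, 1.71, 1.34 and 2.18% in controls and 0.300, 0.906, 0.869 and 0.506% in fasted livers, with no overlap, from mean bin 19 counts of 35.3 and 13.8. At CT8, before food removal, the same bins held 1.57, 1.15, 1.43 and 1.52% and 2.23, 2.06, 2.37 and 1.76%, again without overlap and in the opposite direction. The one Mat2b bin past the mean test, bin 7 of a minor transcript, rested on mean counts of 3.17 and 6.08 (0.92, diffSpliceDGE adjusted p = 0.0336), and was lost with limma (0.68, adjusted p = 0.1002), without male replicate 2 (0.23, adjusted p = 1) and without female replicate 1 (0.50, adjusted p = 1).

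Among other genes of the methionine cycle and its branches, more fell than rose. Of 28 tested genes in these lists, 7 rose, 15 fell and 6 did not pass over CT12 to CT44, with a median of -0.11, beside 6257 genes up and 6976 down of all tested and a median of -0.02. Among the genes that use SAM or clear its product, 3 rose, 5 fell and 1 did not pass: Gamt, which makes creatine, fell by 1.57, whereas Nnmt, which methylates nicotinamide, rose by 0.99 and Ahcy, the S-adenosylhomocysteine hydrolase, rose by 0.79. Of the polyamine and methylthioadenosine genes 1 rose and 7 fell, led by Amd1, the SAM decarboxylase (-0.60), Enoph1 of methionine salvage (-0.42), and the spermine and spermidine synthases Sms (-0.38) and Srm (-0.33). Of the remethylation and betaine genes 1 rose (Bhmt, betaine-homocysteine methyltransferase, 0.69), 3 fell (Sardh -0.25, Mtr -0.23, Aldh7a1 -0.11) and 4 did not pass. In transsulfuration Cth rose by 0.42 and Cbs was at -0.06 and did not pass, and the mitochondrial SAM carrier Slc25a26 rose by 0.24.

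At CT12, when 1.6% of all genes passed, 1 of 9 SAM-using genes rose, 0 of 8 remethylation genes passed and 1 of 8 polyamine genes fell, namely Amd1 (-0.69, edgeR adjusted p = 0.00802). At CT16, with 23.4% of genes called, 2 SAM-using genes rose and 2 fell, and 4 polyamine genes fell. At CT20, with 36.6% called, 6 SAM-using genes fell and 2 rose, 2 polyamine genes fell and 1 rose, and 1 remethylation gene fell. Of 6 genes for proteins that act on MAT mRNAs, 3 rose and 2 fell over CT12 to CT44, beside 62.5% of all genes called: the m6A reader Ythdc1 by 0.26, the RNA-binding proteins Hnrnpd by 0.16 and Elavl1 by 0.11 upward, and Mettl16 (-0.29) and the polyadenylation factor Cpsf6 (-0.06) downward. Mettl16 stood at -0.32 at CT12 (edgeR adjusted p = 0.0423), the 1 of the 6 that passed there. At CT8, before food removal, 2 of the 6 genes passed as lower, with a median of -0.24, when 1.33% of all genes passed.

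Marker genes of the liver's cell types moved beside these results, in a contrast that 62.5% of all genes passed (6257 up, 6976 down). Of 5 markers each, hepatocyte markers rose in 3 and fell in 1, Kupffer cell markers rose in 0 and fell in 4, endothelial markers rose in 2 and fell in 2, stellate markers rose in 1 and fell in 3, and cholangiocyte markers rose in 0 and fell in 4. Summed hepatocyte markers ranged from 58345 to 111282 CPM in controls and from 71950 to 126776 in fasted livers, Kupffer markers from 162 to 600 and from 107 to 350, and cholangiocyte markers from 24.6 to 66.0 and from 6.78 to 50.3. Endothelial sums were 215 to 316 and 216 to 347 CPM and stellate sums 178 to 334 and 160 to 336. Their part in the MAT results was not tested.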

How the data were processed

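Liver RNA of 80 mice was measured as counts per gene and counts per exon bin, both deposited by the authors without normalization. Per the labels, processing involved GRCm39, Trimmomatic, HISAT2 and DESeq2; roles, versions and annotation are not given in the sources used here. Bins were read against GENCODE M21 (GRCm38). The 5 exon rows that name no bin (8.28 to 25.9% of exon counts per library) were left out. Exon-bin totals were 38029100 to 115551000.

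Genes were kept by filterByExpr, scaled by TMM and fitted in edgeR 4.0.16 (R 4.3.3) by the quasi-likelihood test with 1 mean per sex within each treatment and time. Bins were fitted likewise, with fasted CT40 as 1 group, and tested against their gene by diffSpliceDGE, and on their own level by the quasi-likelihood test. P-values were adjusted by Benjamini-Hochberg over all features, with a threshold of 0.05. Gene CPM used the scaled library sizes, and log2 CPM a prior count of 2. Bin CPM used the total of bin counts per library without this scaling. Rhythms were fitted as a 24 h cosine and sine. Permutations (100000 resamples, two-sided) kept time and sex. The scripts were tested on simulated data.

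Alternatives were limma 3.58.1 (voom, diffSplice), DESeq2 1.42.0, other scaling and filters, a replicate block, and leaving out replicates, the library rich in ribosomal RNA, and CT40. Named were the members, their called bins, Mat1a bins 1 to 3, up to 4 called genes per list by size of change (1 such gene is not reported here), and 3 genes of most similar pattern per member. Members and lists were chosen with earlier results of these data known. The article accompanying the data is a review without methods, so the tests were chosen to fit the counts.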

Additional observations from a re-analysis of the deposited data

Results flagged for a closer look

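In 10 of 160 groups of 4 libraries, 1 library stood apart from the rest by Dixon's ratio; chance gives about 1 in 20 such groups. At gene level these were Mat1a in control CT8 female 1 (2861 CPM), Mat2a in fasted CT28 female 2 (62.6 CPM) and fasted CT40 female 2 (142 CPM), and Mat2b in control CT12 female 2 (26.6 CPM) and fasted CT44 female 1 (43.6 CPM). Among bins they were the Mat1a bin 1 share in fasted CT24 male 2 (0.338%) and fasted CT32 male 1 (0.267%), the bin 3 share in fasted CT24 male 2 (1.12%) and the Mat2a last-intron share in control CT8 female 2 (10.6%). The log2 Mat1a to Mat2a ratio of control CT16 male 2 (4.85) was the last of them.

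Effects that differed between groups by a test of the difference included the Mat1a fasting effect in females minus males (-0.43). The fitted rhythms of Mat1a (0.83) and Mat2a (0.71) also differed between treatments, with the limit given above for Mat1a. Differences from the late mean of CT36, CT40 and CT44 passed at CT12 for Mat1a (-1.50), Mat2a (-0.38), Mat2b (-0.29) and the relative change of Mat1a bin 1 (1.37), at CT16 for Mat1a (-1.10) and bin 1 (1.04), and at CT20 for Mat2a (0.55).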

How the results depend on the processing

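Of 111 results, 80 kept their direction and their side of the threshold under every alternative run, as did 858 of 928 alternative values, and none reversed. With limma, 12 member bins passed over CT12 to CT44 in place of 4 (Mat1a bins 1 to 3 lower, 8 of its later bins higher and Mat2b bin 19 lower), and 15 combinations of Mat1a bin and time in place of 9, or 14 with at least 10 counts required in every library. Of all 233672 bins, limma called 5269 in the mean effect, against 4853 in the main fit, and 21 (CT12) to 528 (CT40) at single times. With the 10-count filter 1897 of 123626 bins passed in the mean effect and 23 (CT12) to 446 (CT40) at single times. Over the 4 fits without a replicate, the differences from late ranged at CT12 from -0.58 to -0.19 for Mat2a and from -0.31 to -0.25 for Mat2b, at CT16 from -0.26 to -0.20 for Mat2b and from 0.89 to 1.18 for Mat1a bin 1, and at CT20 from 0.50 to 0.62 for Mat2a and from -0.27 to -0.18 for Mat2b. The sex difference ranged from -0.46 to -0.37 for Mat1a, from 0.10 to 0.29 for Mat2a and from 0.065 to 0.16 for Mat2b. The Mat1a rhythm ranged from 0.34 to 0.59 in the fast and its difference between treatments from 0.57 to 1.03, and the control phase difference of bin 1 from -0.43 to -0.36. In each of these at least 1 of the 4 fits crossed the threshold, and the cause was not tested. Same-numbered libraries of the treatments were not treated as pairs. Their deviations from the group means correlated with r = -0.15 to 0.50 over 18 pairs (median 0.00044, 4 above 0.1). At CT16 r was 0.50 in males and 0.21 in females. A replicate block changed no call: Mat1a stayed at 1.56, with 21 calls of gene and time, 4 member bins and 9 combinations of Mat1a bin and time. With 2 mice per sex and time, single-time values rest on few animals, and low-count bins of Mat2b limit what can be seen there.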
